A study of Rattus norvegicus with 24 samples.

Results

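Alveolar type I cells are the thin, flat cells that line most of the gas exchange surface of the lung, with type II cells, the producers of surfactant, as their neighbours and as a source of new type I cells after injury. A type I cell is known by membrane and cytoskeletal proteins that its thin, wide shape and its water and gas traffic use, and by few secreted products. The 8 genes described here are Ager, Aqp5, Pdpn, Hopx, Cav1, Rtkn2, Clic5 and Emp2, a set of genes used as markers of type I pneumocytes. They were chosen by name, and 9 probes of the array were matched to them by accession: 2 for Pdpn and 1 for each of the others. Of the 8 genes, 7 passed the filter on dim probes, out of 21255 genes or unnamed probes tested on the whole array. Rtkn2 did not.

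The samples were lungs of 24 Fischer-344 rats, obtained at an age of 7 to 8 weeks. Hexanal is a volatile aldehyde found in indoor air. The control group breathed filtered clean air and the other groups breathed hexanal at 600 ppm, 1000 ppm or 1500 ppm for 4 hours a day on 5 days a week. The labels give a span of 5 weeks and, in their protocol text, the unit mg/m3, whereas the treatment labels give ppm and the methods of the study give a shorter span. Each group held 6 rats, 3 males and 3 females, and every rat had 1 array. The tissue was whole lung, so that fewer type I cells and less RNA per type I cell cannot be told apart.

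The 75th percentile of the signal, which set the scale of each array, lay between 1701 and 3133, and 70.7% to 81.7% of probes were well above background on an array. Precision is limited by how many arrays there are, and the dose fits reported did not take sex into account. The 24 arrays lay on 6 slides, and each slide held rats of 1 sex. No slide held control rats together with rats at 1000 ppm or 1500 ppm. In these lungs the 9 measured type II cell markers and the 7 type I genes were bright on every array: the type I genes summed to 253 to 342 times the 75th percentile, and the type II markers to 467 to 631 times.

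No difference between a hexanal group and control passed the test for any of the 7 measured type I genes. All 21 differences from control, 7 genes at 3 doses, were small: the highest mean was 1.14 times control, for Hopx at 600 ppm, and the lowest 0.927 times control, for Pdpn at 1000 ppm. The 95% interval of each of the 21 differences lay within 1.5-fold in either direction, from 0.734 to 1.38 of control at the widest; with slide as a block in the fit 15 of 21 did. Calling a gene took both a 1.5-fold difference and an unadjusted p below 0.05 in limma's moderated test. By that rule 0 of 7 genes were called at 600 ppm, against 0.616% of everything tested. At 1000 ppm 0 of 7 were called, against 1.64%, and at 1500 ppm 0 of 7, against 1.22%. With so few called on the whole array, 0 of 7 sets these genes apart from nothing, and the intervals carry the result. An adjusted p (Benjamini-Hochberg) below 0.05 was reached by 0% of the array at 600 ppm. The share was 0.0188% for the 1000 ppm group and 0.0047% for the 1500 ppm group, without any of the 7 genes. None of the 21 differences had an unadjusted p under 0.05 in the limma fit reported. The lowest, for Hopx at 600 ppm, was 0.0593. The methods' t-test gave 1 such difference, that of Hopx at 600 ppm, with an adjusted p above 0.05. Other limma fits gave 1 of 21 with normexp background correction, 1 with 2 groups only and 1 with sex as a covariate. Over 12 alternative settings, the t-test included, it was Hopx at 600 ppm in 3 and Clic5 at 1500 ppm in 1. With a rat left out, limma gave 0 to 2 of 21. In order of dose, the median difference over the 7 genes was 0.07, 0.03 and 0.01 on the log2 scale. Over all features it was -0.0013, 0.0047 and 0.0127.

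**Figure D1:**
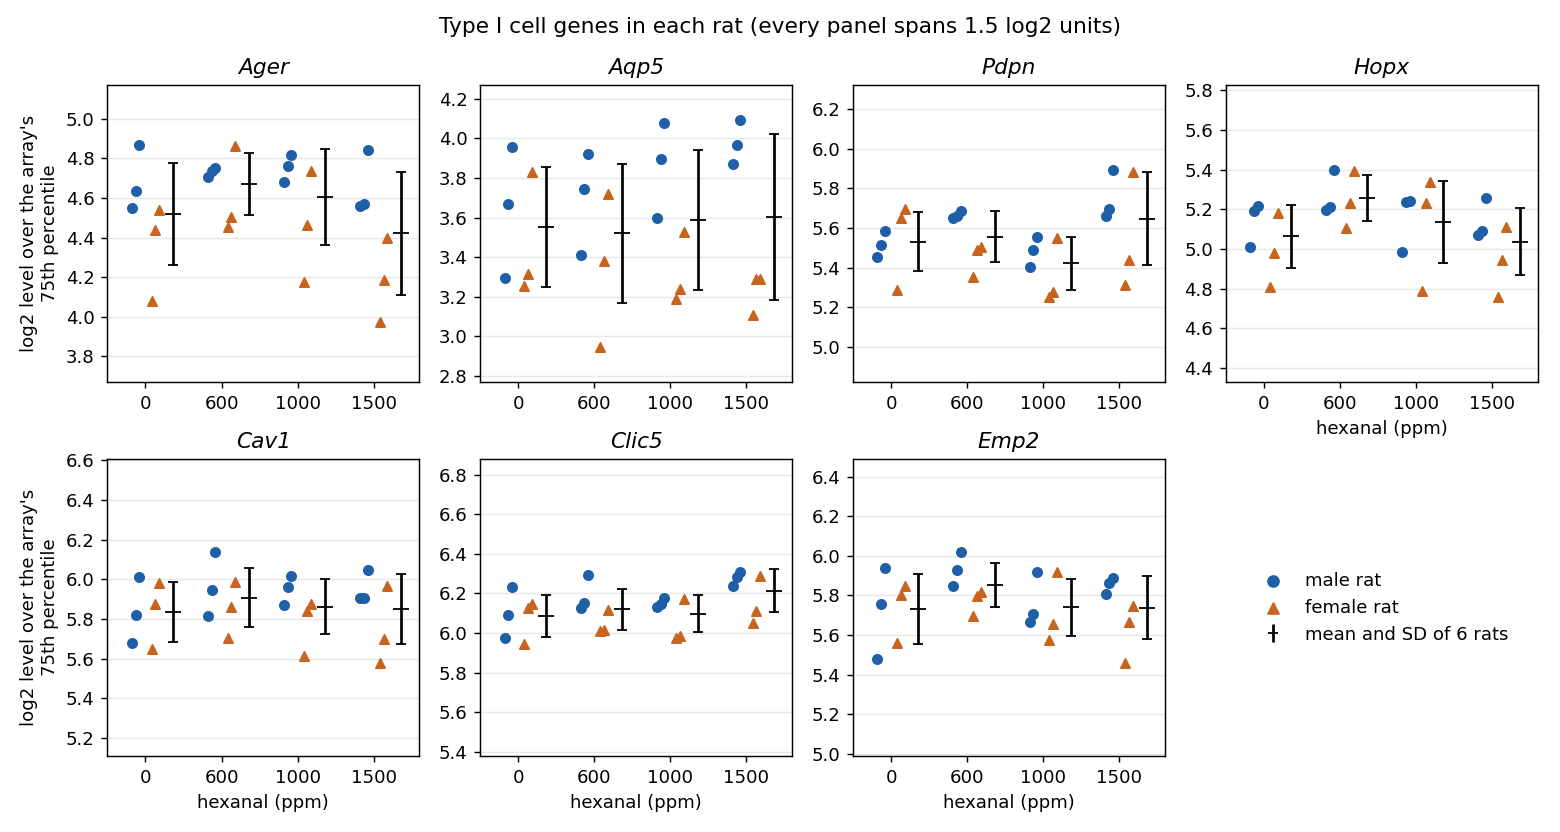
Level of each gene in each rat (log2 over the 75th percentile of the array, vertical axis) by hexanal dose in ppm, with circles for males, triangles for females and a bar for the mean and SD of 6 rats. In every panel the 4 groups overlap, and for Aqp5 at 1500 ppm the 3 males sit between 3.87 and 4.09, above the 3 females between 3.11 and 3.29.

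Levels are given as log2 of the signal over the 75th percentile of the array, and they compare rats for a given probe, not probes with each other. Ager encodes the receptor for advanced glycation end products, which type I cells carry on their basal membrane. In control rats its level had a low of 4.08, a median of 4.54 and a high of 4.87. The low, median and high were 4.45, 4.72 and 4.86 in the 600 ppm group, 4.18, 4.71 and 4.82 in the 1000 ppm group, then 3.97, 4.48 and 4.84 in the 1500 ppm group. The 4 ranges overlapped, and the lowest rat of all 24 was at 1500 ppm. The difference from control was 0.15 (95% interval -0.14 to 0.44) at 600 ppm, 0.09 (-0.20 to 0.38) at 1000 ppm and -0.10 (-0.39 to 0.19) at 1500 ppm. The order of the group means, from 600 ppm through 1000 ppm and control to 1500 ppm, spanned 0.25, and no neighbours in it differed beyond their spread.

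Aqp5 encodes a water channel of the apical membrane of type I cells, also made by airway glands. Its level in control rats had a low of 3.25, a median of 3.49 and a high of 3.95. The low, median and high were 2.95, 3.56 and 3.92 for 600 ppm, 3.19, 3.56 and 4.08 for 1000 ppm, then 3.11, 3.58 and 4.09 for 1500 ppm. Aqp5 varied most among rats of the 7 genes, with a range of 1.15 over the 24 rats, and its groups overlapped nearly in full. The differences from control were -0.03 (-0.45 to 0.38), 0.04 (-0.38 to 0.45) and 0.05 (-0.36 to 0.46) in order of dose. The 3 of 7 gland markers that passed the filter summed to between 0.129 and 0.232 times the 75th percentile over the 24 rats. The part of gland cells in the level of Aqp5 was not tested.

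Across rats of the same group, Ager and Aqp5 were the most alike pair of the set (Pearson's r = 0.79 over 24 rats with the group means removed). The 250 bases before their gene starts are shown for that reason. When the mean of each sex in each group was removed as well, their r was 0.63, and Hopx with Cav1 was highest at 0.82. The sequences are RefSeq's, on the build GRCr8, each read 5′ to 3′ on the strand of its gene. Ager lies on the minus strand, at chr20:4155686-4155935, and Aqp5 on the plus strand, at chr7:132601278-132601527. Capitals mark the letters of the GC box, GGGCGG or its reverse complement CCGCCC.
Ager: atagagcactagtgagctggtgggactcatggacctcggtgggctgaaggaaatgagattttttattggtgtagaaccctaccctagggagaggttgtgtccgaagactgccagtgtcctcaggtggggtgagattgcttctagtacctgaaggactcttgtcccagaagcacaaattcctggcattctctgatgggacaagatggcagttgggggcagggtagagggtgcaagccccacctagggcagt
Aqp5: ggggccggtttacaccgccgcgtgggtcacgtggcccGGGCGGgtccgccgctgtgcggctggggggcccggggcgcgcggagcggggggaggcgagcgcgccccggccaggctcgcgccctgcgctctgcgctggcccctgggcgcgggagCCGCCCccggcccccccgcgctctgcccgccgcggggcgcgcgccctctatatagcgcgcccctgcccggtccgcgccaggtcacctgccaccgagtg
The Aqp5 window held 2 GC boxes and 83.2% G or C, and the Ager window held 0 GC boxes and 53.2% G or C. Of the 9 windows of the 8 genes (Cav1 has 2), 6 held a GC box, as did 30.5% of all 33469 windows in the table. The same search for GGAATG, the core of the site of TEAD factors, on either strand found it in 0 of the 9 windows and in 12.1% of all windows. The letters CCAAT on either strand stood in the Ager window alone among the 9, and in 34.0% of all. No window of the 9 held more than 1 of these 3 motifs. These are matches of letters, and no binding was measured.

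Pdpn encodes podoplanin, a mucin-like membrane protein of type I, lymphatic endothelial and mesothelial cells. In control rats the level of its brighter probe had a low of 5.29, a median of 5.55 and a high of 5.70. The values were 5.35, 5.58 and 5.68 for 600 ppm, 5.25, 5.45 and 5.55 for 1000 ppm, then 5.31, 5.68 and 5.89 for 1500 ppm. The groups overlapped, with the highest rats at 1500 ppm. The differences from control were 0.03 (-0.18 to 0.23), -0.11 (-0.31 to 0.09) and 0.12 (-0.09 to 0.32). Between doses, 1500 ppm lay above 1000 ppm by 0.22 (0.02 to 0.43, exact permutation p = 0.0714, limma adjusted p = 0.899), which did not reach the fold of the call. The dimmer probe of the gene followed the brighter over the 24 rats (r = 0.85 with group means removed) and gave 0.12 for that pair of doses (-0.17 to 0.41), and -0.05 in place of 0.12 at 1500 ppm against control. The 4 lymphatic endothelial markers that passed the filter had a median difference from control of 0.06, 0.02 and -0.09 in order of dose, and the 4 mesothelial markers 0.27, 0.23 and 0.31, none of them called. Their part in the level of Pdpn was not tested.

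Cav1 encodes caveolin, the coat protein of the caveolae that crowd type I and endothelial cells. Its level in control rats had a low of 5.65, a median of 5.85 and a high of 6.01. The values were 5.70, 5.90 and 6.14 for 600 ppm, 5.61, 5.87 and 6.02 for 1000 ppm, then 5.58, 5.91 and 6.05 for 1500 ppm. The 4 groups covered almost the same range. The differences were 0.07 (-0.12 to 0.26), 0.03 (-0.16 to 0.22) and 0.01 (-0.18 to 0.20). Endothelial cells make Cav1 as well, and the 8 endothelial markers measured had a median difference of -0.03, -0.19 and -0.16 in order of dose, with 0 of 8 called at each. The part of endothelial cells in the level of Cav1 was not tested.

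Emp2 encodes an epithelial membrane protein that is abundant in type I cells. In control rats its level had a low of 5.48, a median of 5.78 and a high of 5.94. The values were 5.70, 5.83 and 6.02 for 600 ppm, 5.58, 5.69 and 5.92 for 1000 ppm, then 5.46, 5.78 and 5.89 for 1500 ppm. No group stood apart, and the lowest rat was at 1500 ppm. The differences were 0.12 (-0.06 to 0.30), 0.01 (-0.18 to 0.19) and 0.01 (-0.18 to 0.19).

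Clic5 encodes a chloride intracellular channel protein tied to the cell cortex and its actin. It varied least among rats of the 7 genes, with a range of 0.36 over the 24. In control rats the low, median and high were 5.95, 6.11 and 6.23. They were 6.01, 6.12 and 6.29 for 600 ppm, 5.98, 6.14 and 6.18 for 1000 ppm, then 6.05, 6.26 and 6.31 for 1500 ppm. The median at 1500 ppm lay above the highest control rat, and the ranges overlapped. The differences were 0.03 (-0.10 to 0.17), 0.01 (-0.12 to 0.15) and 0.13 (-0.01 to 0.26), the last with a limma p of 0.0656 and an adjusted p of 0.745.

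Hopx encodes a homeodomain protein without DNA binding of its own, made in type I cells and in heart muscle. In control rats the low, median and high were 4.81, 5.09 and 5.21. They were 5.11, 5.22 and 5.40 for 600 ppm, 4.79, 5.24 and 5.34 for 1000 ppm, then 4.76, 5.08 and 5.25 for 1500 ppm. The lowest rat at 600 ppm lay above the control median and the highest rat of all was in this group, while the ranges overlapped. The difference from control at 600 ppm was 0.19 (-0.01 to 0.39), and an exact permutation test (two-sided, 6 against 6 rats, smallest possible p 0.00216) gave p = 0.039. At 1000 ppm the difference was 0.07 (-0.13 to 0.28) and at 1500 ppm -0.03 (-0.23 to 0.18). The mean at 1500 ppm was lower than that at 600 ppm, with a difference of -0.22 (-0.42 to -0.02, exact permutation p = 0.0303), with overlapping ranges. Of the 42 exact tests of 7 genes over 6 pairs of groups, 2 had p under 0.05, and the lowest adjusted p over the 42 was 0.675, so neither holds after adjustment. Markers of heart muscle differed between rats much more than Hopx did: the 9 that passed the filter had a median difference of 1.06, 2.48 and 0.64 in order of dose, with 5 of 9 called at 1000 ppm, against 1.64% of the array, and 0 at the other doses. They summed to 3.44 to 37.1 in control rats, 5.11 to 61.7 in the 600 ppm group, 8.55 to 128.8 in the 1000 ppm group and 3.53 to 131.1 in the 1500 ppm group. Over the 24 rats with group means removed, the mean of these markers had an r of -0.40 with Hopx. The part of heart muscle in the level of Hopx was not tested.

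Rtkn2 is used as a marker of type I cells. Its probe was well above background in only 5 of the 24 arrays. These were 1 of 6 control arrays, 0 from the 600 ppm group, 1 from the 1000 ppm group and 3 from the 1500 ppm group, so no fold change is given. Its level ranged from -7.68 to -6.25.

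**Figure D2:**
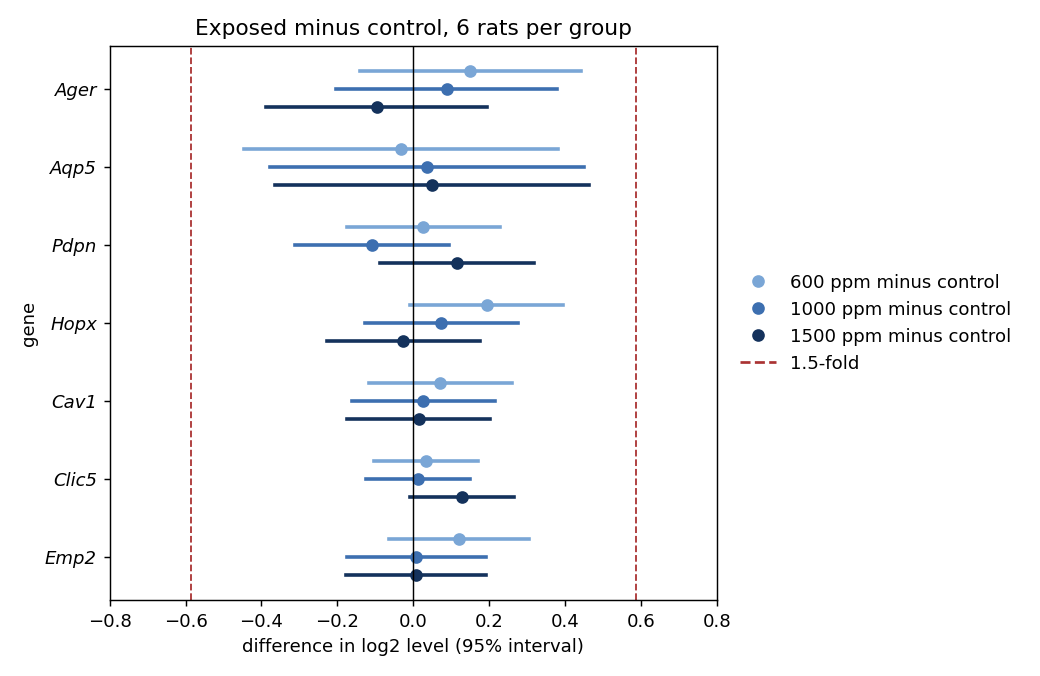
Difference in log2 level between each dose and control (horizontal axis) for the 7 measured genes, with a dot for the estimate and a line for its 95% interval from limma on 24 rats; dashed lines mark 1.5-fold. All 21 intervals lie between the dashed lines, and each crosses 0.

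Between doses, 0 of 7 genes were called for 1000 ppm against 600 ppm, where 0.63% of the array was, 0 for 1500 ppm against 600 ppm, where 1.16% was, and 0 for 1500 ppm against 1000 ppm, where 0.522% was. At an unadjusted p under 0.05, limma gave 0, 1 and 1 of the 7 genes, which are Hopx and Pdpn as above. No share of all features is given at that threshold, here or for the slopes that follow. In a straight line over dose, the slopes per 1000 ppm lay between -0.06 for Ager and 0.07 for Clic5, and 0 of 7 had an adjusted p under 0.05 in limma, as did 0.0141% of the array; 0 of 7 had an unadjusted p under 0.05. Within slides, where groups of neighbouring dose met in rats of 1 sex, 11 of 14 differences of 600 ppm against control were above 0, from -0.19 to 0.51. Of those of 1000 ppm against 600 ppm 4 of 14 were above 0 (-0.13 to 0.20), and of those of 1500 ppm against 1000 ppm 7 of 14 (-0.30 to 0.35). These came from 1 to 3 rats a side. Each 14 counts the 7 genes, which varied together, on a male and a female slide, and does not count rats. Against control, the 600 ppm side was rat 6 alone on slide 2 and rat 26 alone on slide 5. The share over all features is not given. With slide as a block, no gene was called at any dose, but the intervals widened. The 6 that passed 1.5-fold were those of Ager at all 3 doses, Aqp5 at 1000 ppm and 1500 ppm, and Pdpn at 1500 ppm, the widest upper bound being 0.90 for Aqp5 at 1500 ppm.

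The type I genes had higher means in males than in females, as did several type II and endothelial markers. This comparison of the 12 male with the 12 female rats, with dose in the fit, was added after the values were seen. The difference was above 0 for all 7, from 0.10 to 0.45, and the median over all features was -0.03. A difference above 0 was found for 9489 of 21255 features, and the 7 genes varied together from rat to rat. Aqp5 ranged from 3.29 to 4.09 in males, with a median of 3.88, and from 2.95 to 3.83 in females, with a median of 3.29. Its difference was 0.45 (0.23 to 0.67, limma adjusted p = 0.0041), or 1.37-fold, and the ranges overlapped. Ager ranged from 4.55 to 4.87 in males, with a median of 4.72, and from 3.97 to 4.86 in females, with a median of 4.45. Its difference was 0.31 (0.15 to 0.46, limma adjusted p = 0.0062), or 1.24-fold. These 2 of 7 genes passed an adjusted p of 0.05, as did 24.9% of the array, 9.34% with the higher level in males. For the others the differences were 0.13 for Pdpn, 0.12 for Cav1, 0.11 for Emp2, 0.10 for Hopx and 0.10 for Clic5, with adjusted p from 0.0786 to 0.259. Since a slide held rats of 1 sex, sex was also fitted with slide as a random block over the 3 slides of each sex. Aqp5 (limma adjusted p = 0.0203) and Ager (0.0346) again passed, as did 13.3% of the array. With arrays scaled to their median 5 of 7 genes passed in the fit without slide, and with the deposited values unscaled 6 of 7. In the fit reported, the type II markers Slc34a2 (0.27), Napsa (0.23), Etv5 (0.27), Lpcat1 (0.25) and Sftpa1 (0.22) also passed, higher in males. Sftpb, Sftpd, Lamp3 and Sftpc did not, and Sftpc was lower in males. Endothelial Cldn5 (0.63), Cdh5 (0.37), Emcn (0.33), Tie1 (0.23) and Ramp2 (0.19) passed, higher in males. Pecam1, Kdr and Tek did not, the first and second lower in males.

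**Figure D3:**
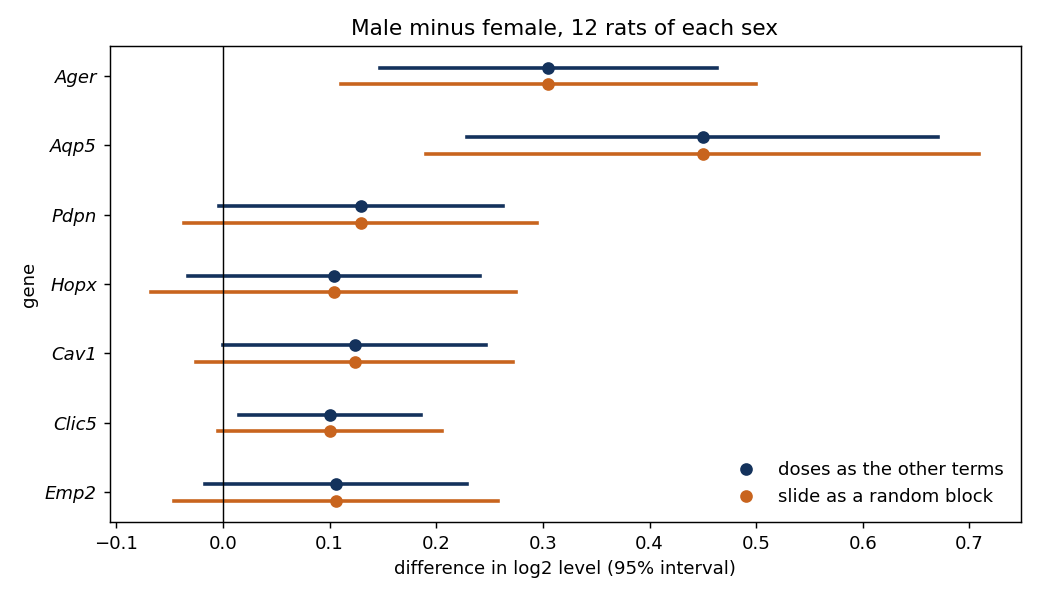
Difference in log2 level between 12 male and 12 female rats (horizontal axis) for the 7 genes, with a dot for the estimate and a line for the 95% interval, in the fit with dose alone and in the fit with slide as a random block. Aqp5 and Ager lie at 0.45 and 0.31 with intervals above 0 in both fits.

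Whether hexanal acted otherwise in males than in females was tested as the male change minus the female change at each dose. At 600 ppm 0 of 7 genes passed an adjusted p of 0.05, as did 0% of the array, and at 1000 ppm 0 of 7, as did 0% of the array. At 1500 ppm 0 of 7 passed, where 5.02% of the array did. The unadjusted p was under 0.05 for 0 of 7 genes at each dose, and the share of all features at that threshold is not given. The largest of these differences was that of Aqp5 at 1500 ppm, 0.58 (-0.03 to 1.19, limma adjusted p = 0.277). The male rats of the control group stood at 3.29, 3.67 and 3.95 and those at 1500 ppm at 3.87, 3.97 and 4.09. The females stood at 3.25, 3.32 and 3.83 in control and at 3.11, 3.29 and 3.29 at 1500 ppm. In each sex the ranges at 1500 ppm and in control overlapped, while the highest males and the lowest female at 1500 ppm lay outside the range of the 6 control rats. With slide as a block this difference was -0.35, with a sign opposite to that without it.

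The levels of the 7 genes varied together from rat to rat. Pearson's r over the 24 rats, with group means removed, was above 0 for all 21 pairs, from 0.43 for Aqp5 with Hopx to 0.79 for Ager with Aqp5, with a median of 0.68. After the mean of each sex in each group was removed as well, the median was 0.58 and the range 0.19 to 0.82, highest for Hopx with Cav1. Against all 21079 features with a value on every array, the median r of a type I gene lay between -0.03 and 0.02. Between 3.31% and 10.2% of features had an r over 0.5 with a given type I gene, against 17 of the 21 pairs among them. The points of these correlations share an array and its scaling; the mean of the 7 genes had an r of 0.30 with the 75th percentile of the array and of -0.40 with the mean of the heart muscle markers. The mean of the 7 genes had a median of 5.24 in control rats, 5.30 at 600 ppm, 5.29 at 1000 ppm and 5.28 at 1500 ppm. Its lowest rat in each group stood at 4.94, 5.13, 4.94 and 4.94. Rats with a mean near 4.94 were thus found in control, at 1000 ppm and at 1500 ppm, and not at 600 ppm. The lowest rat of each group (rats 22, 27, 31 and 36) was female.

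**Figure D4:**
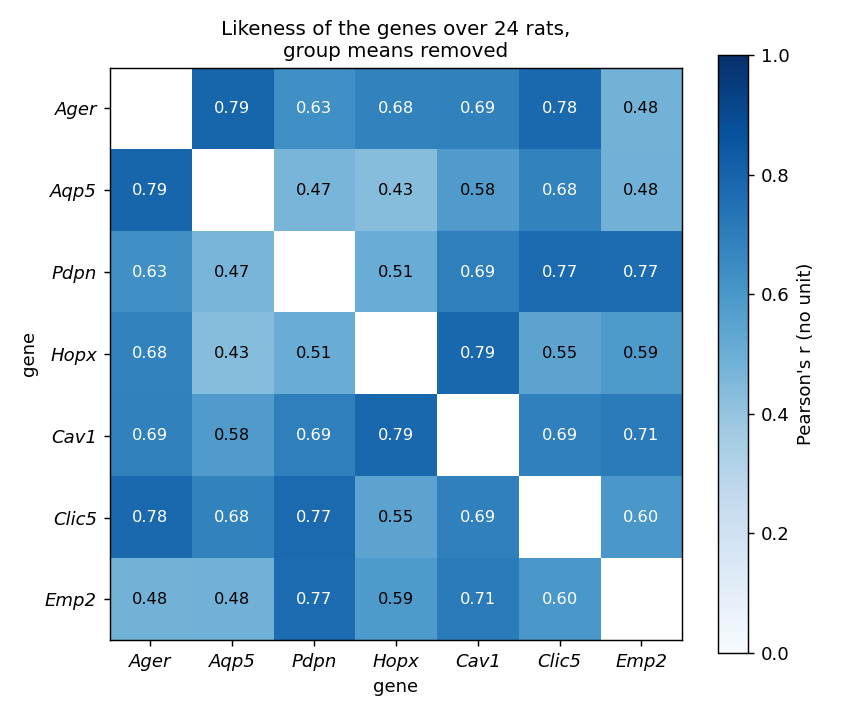
Pearson's r between each pair of the 7 genes over 24 rats after each group's mean was removed, on a colour scale from 0 to 1. All 21 pairs lie between 0.43 and 0.79.

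Among 12403 named genes, those nearest to the mean of the 7 genes, each scaled to unit SD, were Serpinb10 (r = 0.91), Niban2 (r = 0.90) and Timp2 (r = 0.89) over the 24 rats. The gene nearest to Ager was Clic3 (r = 0.93), to Aqp5 Niban2 (r = 0.89), to Hopx Anxa8 (r = 0.90) and to Cav1 Tmem204 (r = 0.90). For Clic5 it was Xrcc5 (r = 0.85), for Emp2 Alcam (r = 0.82) and for Pdpn Krt7 (r = 0.81), a keratin of the wider list of type I genes. In no case was the nearest gene another of the 7. Each is the top of a search over all these genes, which favours high values of r. Group means were removed, but the means of the sexes were not.

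A wider list of type I genes held no gene called against control either. Of 25 further genes made in type I cells, 20 were on the array and passed the filter, among them Akap5, Cldn18, Gprc5a, Vegfa and the keratin Krt7. None was called at any dose, and the differences lay between -0.28 and 0.33. Their median was 0.06, -0.0002 and 0.05 in order of dose. Gprc5a, a membrane receptor, was the only gene of the list with an unadjusted p under 0.05 in limma for a dose against control, at 1500 ppm, with 0.28 (adjusted p = 0.64). Between doses, Agrn for 1000 ppm against 600 ppm and Cldn18 for 1500 ppm against 600 ppm, with -0.37 (adjusted p = 0.465), had an unadjusted p under 0.05. Gprc5a, Agrn and Cldn18 cannot be set against the array, since no share of all features is given at that threshold. Between the sexes, 17 of the 20 had a higher mean in males and 3 a lower one, where 9489 of 21255 features were higher in males. The 20 genes are not replicates. An adjusted p of 0.05 was passed by 3 of the 20, against 24.9% of the array. These were Igfbp2, a binding protein of insulin-like growth factors, lower in males with -0.46 (limma adjusted p = 0.0054), and Aqp1 and Cav2, a water channel and a caveolin, higher in males with 0.48 and 0.27. Igfbp2 also passed with slide as a random block (limma adjusted p = 0.0314), while the limma adjusted p of Aqp1 was 0.0662 and that of Cav2 0.0507. For the male change minus the female change at 1500 ppm 1 of the 20 passed, Cavin1, a coat protein of caveolae, against 5.02% of the array. Its control males stood at -2.27, -1.76 and -1.42 and its males at 1500 ppm at -0.87, -0.68 and -0.67. Its control females stood at -1.35, -1.05 and -0.61 and its females at 1500 ppm at -2.51, -2.36 and -1.69. The males at 1500 ppm thus lay above all control males and the females below all control females, a difference between the changes of 2.26 (limma adjusted p = 0.0168). These 4 sets of 3 rats were on 4 different slides. When slide was a random block the difference was 2.86 and its limma adjusted p was 0.109, and with slide as a block it was 5.12 with 0.0428. The part of slide in it was not tested. With 1 of 20 genes against 5.02% of the array, the list did not stand apart from the array. The share of all features whose rats separated in this way is not given.

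Of 10 factors and signals of type I differentiation, 9 passed and 0 were called at any dose. The largest difference among them was that of Klf6, a zinc finger factor, at 1500 ppm, -0.41, with an unadjusted limma p of 0.0064 and an adjusted p of 0.523. An unadjusted p under 0.05 was also found for Tgfb2 at 1500 ppm (0.26) and, at 1000 ppm, for Bmp4 (-0.19) and Notch1 (-0.20), signals of lung development. The share of all features at that threshold is not given, so these genes cannot be set against the array. Nkx2-1, the master factor of lung epithelium, differed by 0.01, -0.13 and -0.09 in order of dose.

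Genes of cells on the way from type II to type I after injury form another list, since such cells carry a keratin and claudin program before the type I genes come on. Of 14, 11 passed the filter, and Cldn4, a claudin of tight junctions, was the only gene called in it at any dose. It was called at 1000 ppm, 1 of 11 against the 1.64% of the array called there. Its level in control rats had a low of -1.97, a median of -1.64 and a high of -1.28. At 1000 ppm the values were -1.23, -0.93 and -0.74, so that every rat lay above every control rat, by a narrow gap. The ranges of these groups did not overlap for 0.455% of features, and Cldn4 is named because it was called. The difference at 1000 ppm was 0.66 (0.30 to 1.03), with an unadjusted limma p of 0.0011 and an adjusted p of 0.515. At 600 ppm it was 0.35 (-0.02 to 0.71) and at 1500 ppm 0.56 (0.19 to 0.93), where the fold stayed under 1.5. Blocked by slide, the differences were 0.42, 0.70 and 0.45 in order of dose, with an unadjusted limma p of 0.0978, 0.0403 and 0.268. Airway cells make Cldn4 too: the 6 airway markers that passed summed to 187.9 to 248.5 times the 75th percentile at 1000 ppm and to 146.8 to 232.4 in control rats, and their part in the level of Cldn4 was not tested. The median of the list was 0.05, 0.09 and 0.07, and 8, 6 and 8 of the 11 genes lay above control. Over the whole array 10545, 10894 and 11426 of 21255 features did. The share of all features at an unadjusted p under 0.05 is not given, so the next count cannot be set against the array. At an unadjusted p under 0.05 limma gave 3 of the 11 genes at each dose, and 0 after adjustment. They were Krt19 (0.37), Lgals3 (0.23) and Cryab (0.27) at 600 ppm. At 1000 ppm and at 1500 ppm they were Cldn4, Krt18 (0.28 and 0.22) and Cryab (0.32 and 0.33). Krt8, the keratin that names these cells, differed by 0.05, 0.18 and 0.07. Krt19 is also counted among the mesothelial markers. The part of mesothelial, heart muscle and other cells in the levels of Krt19, Cryab, Krt18 and Lgals3 was not tested. The type II markers, 9 of which passed, had a median of 0.02, -0.05 and -0.10, with 0 called at any dose. At 1000 ppm and at 1500 ppm 8 of 9 lay below control, while 10894 and 11426 of 21255 features lay above it. Genes of a list are not replicates. At 1500 ppm Slc34a2 (-0.29) and Lpcat1 (-0.31) had an unadjusted limma p of 0.0093 and 0.0122, and an adjusted p of 0.572 and 0.595.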

How the data were processed

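Total lung RNA was labelled with Cy3 and hybridised, 1 rat to an array, to Agilent rat 4x44K arrays. The authors deposited the scanner files of Agilent Feature Extraction 11.5.1.1, of which the processed signal intensity, background-subtracted and detrended within each array, was used. The deposited series table holds the same intensities (within 0.1%, at least 99.7% of probes on an array); other columns of the files hold flags. Control spots and outlier spots were dropped and spots of a probe averaged (30367 probes). Accessions were named through RefSeq genes of GRCr8, for names only, since the array was designed on another build; 18355 probes matched.

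Log2 intensity minus the array's 75th percentile was analysed. A probe had to be well above background on 5 of the 6 arrays of some group; where a gene kept several probes, that with the highest mean was taken. No probe was saturated. All 24 arrays were fitted with lmFit and eBayes (R 4.3.3, limma 3.58.1), with Benjamini-Hochberg adjustment over all features; the trend, the difference between the sexes and the slide blocks were fitted the same way. Intervals are 95% and unadjusted. Exact permutation tests used SciPy 1.17.1. Scripts were tested on simulated data. The 8 genes, the lists and the naming rules (genes of the type I and transitional lists called at any dose; the nearest genes by r) were chosen with earlier results of these data known. Krt7, Krt8, Akap5, Cldn18, Gprc5a, Vegfa, Agrn, Igfbp2, Aqp1, Cav2, Cavin1, Klf6, Tgfb2, Bmp4, Notch1, Nkx2-1, Krt18, Krt19, Lgals3 and Cryab were named outside that rule, after their values were seen. So were the single type II and endothelial markers. Each sample is a separate rat per the labels, and p-values measure the spread between rats. In the dose fits and the exact tests sex was left out, so that spread includes the difference between males and females. With sex as a covariate, all 21 intervals for dose lay within 1.5-fold, from -0.34 to 0.39 in log2 at the widest. Alternatives were normexp (offset 50), quantile and median scaling, the deposited table without scaling, other filters and fits, and leaving out each rat.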

Additional observations from a re-analysis of the deposited data

Results flagged for a closer look

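The Rtkn2 probe in control rat 23 read -6.25 (log2 over the 75th percentile), far from the next highest control rat at -6.94. The gap was 0.839 of the range of the 6 control rats, above Dixon's 95% limit for 6 samples. The probe was well above background on 1 of the 6 control arrays. This was the only such sample among 36 sets of 6 rats (9 probes in 4 groups); chance gives about 1 in 20.

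At 1500 ppm Aqp5 lay above the male control mean in all 3 males, by 0.34 on average, and below the female control mean in all 3 females, by -0.24. The difference between the changes, 0.58, had a limma p of 0.0622 and an adjusted p of 0.277. Pdpn at 600 ppm lay above the male control mean in all 3 males, by 0.15, and below the female control mean in all 3 females, by -0.09, with a limma p of 0.204 and an adjusted p of 0.964 for the difference of 0.24.

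In the wider list of type I genes, Cavin1 at 1500 ppm was 1.08 above the male control mean in males and lay at -1.18 from the female control mean in females, in all 3 rats of each. The difference, 2.26, had a limma adjusted p of 0.0168, and of 0.109 with slide as a random block. For this comparison 1 of the 20 genes of the list passed an adjusted p of 0.05, as did 5.02% of the array.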

How the results depend on the processing

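With every alternative, the 24 fits that each left out a rat included, 0 of 7 genes were called at any dose or between doses, and none passed for the dose trend or for a difference between the sexes in the change at a dose. The medians of the 7 genes moved by less than the spread between rats. With a rat left out, the median ran from 0.03 to 0.11 at 600 ppm. It ran from -0.01 to 0.08 at 1000 ppm and from -0.03 to 0.07 at 1500 ppm, so both of these crossed 0. Since the single differences were near 0, some changed sign, the cause of which was not tested. With slide as a block, that of Aqp5 at 600 ppm was 0.18, of Pdpn at 600 ppm -0.0121, of Emp2 at 1000 ppm -0.0108, of Ager at 1500 ppm 0.0564 and of Hopx at 1500 ppm 0.0732, and the male minus female change of Aqp5 at 1500 ppm was -0.35. With slide as a random block, Aqp5 at 600 ppm stood at 0.0451 and Emp2 at 1000 ppm at -0.00994. With normexp Hopx at 1500 ppm was 0.0231, and with arrays scaled to their median Emp2 at 1500 ppm was -0.00253. With the deposited table unscaled, Aqp5 was 0.0381 at 600 ppm and -0.0158 at 1500 ppm, Cav1 -0.0513 and Emp2 -0.0587 at 1500 ppm.

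When rats were left out in turn, the ranges that crossed 0 were these. At 600 ppm they were -0.11 to 0.0823 for Aqp5, -0.0225 to 0.0674 for Pdpn and -0.00101 to 0.063 for Clic5. At 1000 ppm they were -0.000203 to 0.17 for Ager, -0.0626 to 0.12 for Aqp5, -0.011 to 0.0758 for Cav1, -0.0147 to 0.0421 for Clic5 and -0.0428 to 0.0497 for Emp2. At 1500 ppm they were -0.0486 to 0.15 for Aqp5, -0.0777 to 0.0302 for Hopx, -0.0252 to 0.0685 for Cav1 and -0.0441 to 0.0626 for Emp2. All 21 intervals stayed within 1.5-fold in each of these 24 fits. The number of exact tests with p under 0.05 ranged from 0, without rat 7 of the 600 ppm group, to 4, without rat 36 of the 1500 ppm group, against 2 of 42. It was 1 without rats 1, 21 or 22 of the control group, or 6, 8, 26 or 27 of the 600 ppm group.

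Of the genes that differed between males and females, 2 of 7 passed in the fit reported, 5 with arrays scaled to their median and 6 with the deposited table unscaled, where the median over all features moved from -0.03 to 0.14. Leaving out rats gave 2 to 3. Without scaling, 16 of 21 intervals for dose lay within 1.5-fold. The sex comparison could not be fitted with slide as a fixed block. Over all features, the counts called at 600, 1000 and 1500 ppm were 131, 348 and 260. Without the filter on dim probes they were 587, 562 and 479, and with the filter on all 24 arrays 50, 225 and 151. With normexp 40 were called at 600 ppm and 94 at 1500 ppm, with slide as a block 227 and 405. The methods' t-test called 87 at 600 ppm, the unscaled values 569 at 1000 ppm and slide as a random block 140 at 1500 ppm. At an adjusted p of 0.05 the counts were 0, 4 and 1.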
